A study of Mus musculus with 4 samples.

Results

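The 9 genes described here encode liver-enriched transcription factors: Hnf4a, Foxa1, Foxa2, Foxa3, Onecut1, Onecut2, Cebpa, Prox1 and Nr5a2. They were taken as a named list, not by their values, and stand among 22180 genes that had a probe set paired with exactly 1 symbol. Each of the 9 had 1 such probe set, so no choice between probe sets was needed. Liver RNA of male mice was hybridised to Affymetrix Mouse Gene ST 2.1 arrays, with 2 pools from Nrg4 knockout (KO) mice and 2 pools from wild type (WT) mice. Nrg4 encodes neuregulin 4, a hormone-like signal related to epidermal growth factor that acts through ErbB receptors. All mice, WT included, ate the NASH diet (Research Diets D09100301), which produces fatty liver with inflammation, starting when they were 3 months old and lasting 20 weeks, and had free access to food when their livers were collected. The sources used here do not state the strain, the design of the KO allele or how many animals made up a pool, and no group on ordinary chow was analysed here. The comparison asks whether expression of hepatocyte identity factors differs when Nrg4 is lost.

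These factors act as a network that sets and keeps the identity of the hepatocyte. HNF4A, a nuclear receptor, and the FOXA proteins, which open chromatin as pioneer factors, bind enhancers of many liver genes together with the cut-homeodomain factors of the ONECUT family and with C/EBP alpha. PROX1, a homeodomain protein, and NR5A2, the nuclear receptor also called LRH-1, act in liver development and in the control of bile acid and cholesterol genes. Several members are also made outside hepatocytes: bile duct cells make FOXA and ONECUT factors, and lymphatic endothelium makes PROX1.

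The Nrg4 probe set served as the check of genotype. It stood at 0.93 in both KO pools, against 2.54 and 2.30 in the WT pools, on the deposited log2 scale. The difference was -1.49 ± 0.20 (SE; limma, adjusted p = 0.181), and the sources used here do not state whether this probe set lies in the deleted part. The zero point of the scale is not stated, and array medians were 0.64 and 0.53 in the KO pools and 0.52 and 0.56 in the WT pools. Every value below is a log2 level or a log2 difference, KO minus WT. Of the 12458 genes at or above the median probe set level of 0.54, all 9 factors were among those tested, with KO means at least 2.78 and WT means at least 3.49 above that median. Defining hepatocyte markers were well above it in all pools, with a median level over 14 markers of 8.94 and 9.03 in the KO pools and 9.29 and 9.33 in the WT pools.

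Promoter windows are shown for the 4 factors whose KO pools both lay below both WT pools, the genes on which the values below turn. Windows of 300 bases, 250 before and 50 after a transcription start, came from RefSeq (GRCm38.p6) for 8 of the 9 factors by symbol, all but Onecut2, in 13 windows. Capitals mark letters that matched 1 of 5 short motifs on either strand. The letters searched for the FOXA proteins were TGTTTAC, the core of their forkhead site. Those for the ONECUT proteins were ATTGAT, and for HNF4 the specific end of its site was used, CAAAGTC. For C/EBP proteins most of their palindrome was used, TTGCGCA, and for LRH-1 its extended site without the last base, CAAGGTC. No matched stretch overlapped another.
Foxa3 (chr7:19023490-19023789, minus strand): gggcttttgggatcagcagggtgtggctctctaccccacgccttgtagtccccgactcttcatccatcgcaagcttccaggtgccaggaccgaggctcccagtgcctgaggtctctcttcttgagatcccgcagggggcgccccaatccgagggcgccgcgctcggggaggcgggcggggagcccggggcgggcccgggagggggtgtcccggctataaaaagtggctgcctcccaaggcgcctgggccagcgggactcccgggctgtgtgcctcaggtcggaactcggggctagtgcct
Onecut1 (chr9:74861671-74861970, plus strand): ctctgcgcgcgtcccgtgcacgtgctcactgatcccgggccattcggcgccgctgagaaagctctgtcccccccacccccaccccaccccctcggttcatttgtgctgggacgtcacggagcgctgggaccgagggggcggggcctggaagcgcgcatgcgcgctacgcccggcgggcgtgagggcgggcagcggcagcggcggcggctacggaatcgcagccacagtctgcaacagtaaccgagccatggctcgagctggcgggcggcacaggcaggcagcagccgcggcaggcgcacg
Nr5a2, upstream start (chr1:136960399-136960698, minus strand): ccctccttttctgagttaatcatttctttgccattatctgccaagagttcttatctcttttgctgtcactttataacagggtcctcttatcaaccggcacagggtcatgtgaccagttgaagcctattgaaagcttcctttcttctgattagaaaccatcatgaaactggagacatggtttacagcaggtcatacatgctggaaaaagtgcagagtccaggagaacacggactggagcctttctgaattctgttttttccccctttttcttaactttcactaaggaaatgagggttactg
Hnf4a, upstream start (chr2:163506607-163506906, plus strand): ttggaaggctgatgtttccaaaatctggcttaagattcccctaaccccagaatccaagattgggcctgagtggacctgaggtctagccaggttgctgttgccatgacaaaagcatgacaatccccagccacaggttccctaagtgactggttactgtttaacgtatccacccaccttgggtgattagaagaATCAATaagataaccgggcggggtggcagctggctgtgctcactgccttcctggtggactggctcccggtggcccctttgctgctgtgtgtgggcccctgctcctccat
Hnf4a, downstream start (chr2:163546905-163547204, plus strand): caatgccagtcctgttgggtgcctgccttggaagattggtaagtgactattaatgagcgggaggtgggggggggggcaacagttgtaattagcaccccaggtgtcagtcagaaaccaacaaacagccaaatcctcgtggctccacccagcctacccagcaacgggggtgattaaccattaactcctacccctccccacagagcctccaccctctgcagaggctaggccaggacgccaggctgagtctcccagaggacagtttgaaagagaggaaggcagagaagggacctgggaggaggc

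The upstream Hnf4a window held an ONECUT match at -59 to -54 from the start, and the downstream one, 40298 bases away, held none of the letters searched. Mouse Hnf4a is known to have a downstream promoter used in adult liver and an upstream one used in other tissues and stages, and the array value does not separate their transcripts. The windows of Nr5a2 held none of the letters either. The windows of Foxa3 and Onecut1, at 69.0% and 73.0% G and C bases, held no match, and neither did those of Cebpa and Prox1. Foxa1 held a FOXA match at -141 to -135, and Foxa2 an ONECUT match at -213 to -208 of its most upstream start. Of all 32851 windows of this length, 7.54% held the ONECUT letters, 3.65% FOXA, 4.44% HNF4, 2.02% C/EBP and 3.96% LRH-1. A match is a description of letters only.

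No factor passed the test for a difference between KO and WT livers. By limma, 0 of 9 had an adjusted p under 0.05, beside 0.0482% of all tested genes called, and 2 of 9 had an unadjusted p under 0.05, both lower in KO, beside 3.92% of tested genes lower and 6.37% higher at that level. The 2 were Foxa3 and Onecut1. Foxa3 was no longer among them without WT pool 1 or KO pool 1, nor Onecut1 without WT pool 2, and Foxa1 joined them without KO pool 2. Of the 9, 5 had a difference below 0, beside 48.4% of tested genes. In 4 of the 9, Foxa3, Onecut1, Nr5a2 and Hnf4a, both KO pools lay below both WT pools, beside 19.5% of tested genes. In none did both KO pools lie above both WT pools, beside 22.2% of tested genes. The median difference of the 9 was -0.25, beside 0.01 over all tested genes, and was -0.003 without KO pool 1. With 2 pools against 2, an exact two-sided permutation test cannot give a p under 0.333.

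**Figure D1:**
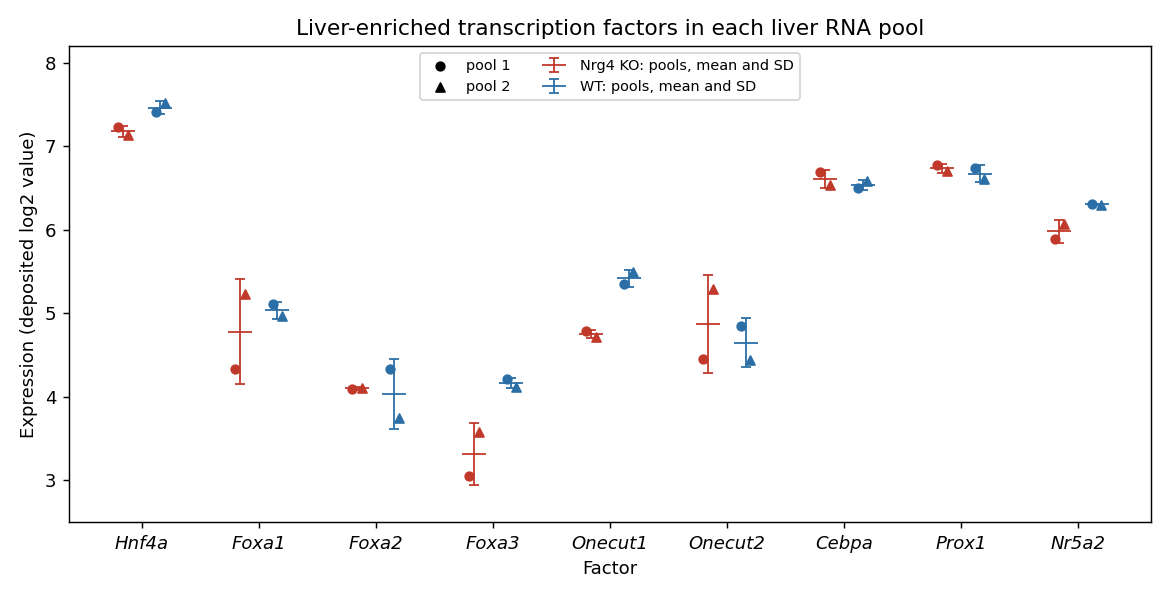
Deposited log2 value of each factor in the 2 Nrg4 KO pools (red, left of each pair) and the 2 WT pools (blue, right); circles are pool 1, triangles pool 2, and bars are the mean and SD of 2 pools. The KO points of Foxa3, Onecut1, Nr5a2 and Hnf4a all lie below the WT points, while the other 5 factors overlap. Levels of different factors come from different probes and are not comparable with each other.

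Foxa3 had the largest difference of the 9. FOXA3 is the FOXA member that is most abundant in adult liver and that is not needed for liver formation. It stood at 3.05 and 3.58 in the KO pools, against 4.21 and 4.12 in the WT pools. Both KO pools were lower than both WT pools, and KO pool 1 was the lower of the KO pools by 0.53, a gap wider than that of 79.2% of tested genes. The difference was -0.85 ± 0.24 (SE; 95% interval -1.45 to -0.24; limma, adjusted p = 0.368), or 1.80-fold lower in KO. Of all tested genes, 1.64% had a difference at or below this one. With 1 pool left out it ranged from -1.11 to -0.58, and it was nearest to 0 without KO pool 1.

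The other FOXA genes gave smaller differences that did not pass the test. Foxa1 and Foxa2 are the pair that starts liver development from foregut endoderm in the mouse. Foxa1 stood at 4.34 and 5.23 in the KO pools, against 5.11 and 4.97 in the WT pools. The WT values lay between the KO values, and the KO gap of 0.89 was wider than that of 93.8% of tested genes. Its difference was -0.25 ± 0.33 (95% interval -1.06 to 0.55, limma, adjusted p = 0.835), and it was 0.19 without KO pool 1 and -0.70 without KO pool 2. Foxa2 stood at 4.09 and 4.11 in the KO pools, against 4.33 and 3.74 in the WT pools. Here the KO pools lay between the WT pools, whose gap of 0.59 was wider than that of 85.1% of tested genes. The difference of Foxa2 was 0.07 ± 0.26 (95% interval -0.57 to 0.70, adjusted p = 0.953). The intervals of Foxa1 and Foxa2 overlap that of Foxa3, and whether the 3 genes differ from each other was not tested.

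Onecut1 was the second factor with an unadjusted p under 0.05. Onecut1 encodes HNF6, a cut-homeodomain factor of hepatocytes and bile ducts. It stood at 4.78 and 4.72 in the KO pools, against 5.35 and 5.49 in the WT pools. The KO pools lay 0.06 apart and the WT pools 0.14 apart, and the genotypes did not overlap. The difference was -0.67 ± 0.19 (SE; 95% interval -1.14 to -0.19; limma, adjusted p = 0.368), or 1.59-fold lower in KO. Of all tested genes, 3.29% had a difference at or below it, and without 1 pool it ranged from -0.74 to -0.59. Its relative Onecut2 stood at 4.46 and 5.29 in the KO pools, against 4.85 and 4.45 in the WT pools. These groups overlapped, and the KO gap of 0.83 was wider than that of 92.5% of tested genes. The difference of Onecut2 was 0.22 ± 0.33 (95% interval -0.60 to 1.05, adjusted p = 0.859), and it was -0.19 without KO pool 2.

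Nr5a2 and Hnf4a had smaller differences, in the same direction as Foxa3 and Onecut1, that did not pass. Nr5a2, the gene of LRH-1, stood at 5.89 and 6.07 in the KO pools, against 6.31 and 6.30 in the WT pools. Hnf4a stood at 7.23 and 7.13 in the KO pools, against 7.40 and 7.52 in the WT pools. In both genes the groups did not overlap, and the pools of a genotype lay at most 0.19 apart. The difference was -0.32 ± 0.19 for Nr5a2 (95% interval -0.81 to 0.16, limma, adjusted p = 0.632). For Hnf4a it was -0.28 ± 0.19 (95% interval -0.75 to 0.19, adjusted p = 0.678). With the variance allowed to follow intensity, 4 of the 9 factors had an unadjusted p under 0.05, beside 5.8% of tested genes lower and 6.38% higher. These were Onecut1, Foxa3, Hnf4a and Nr5a2, and 0 of 9 passed after adjustment by limma, beside 1.09% of tested genes, with Onecut1 nearest at an adjusted p of 0.129.

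Cebpa and Prox1 had the differences nearest 0 together with Foxa2. C/EBP alpha is a leucine zipper factor that drives genes of glucose and nitrogen metabolism in hepatocytes. Cebpa stood at 6.69 and 6.53 in the KO pools, against 6.50 and 6.58 in the WT pools. Prox1 stood at 6.77 and 6.70 in the KO pools, against 6.74 and 6.60 in the WT pools. The groups overlapped in both genes. Cebpa differed by 0.07 ± 0.19 (95% interval -0.41 to 0.55, limma, adjusted p = 0.925) and Prox1 by 0.06 ± 0.19 (95% interval -0.41 to 0.54, adjusted p = 0.937). These intervals leave out a difference as low as the -0.67 of Onecut1. They do not show that the levels were equal.

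**Figure D2:**
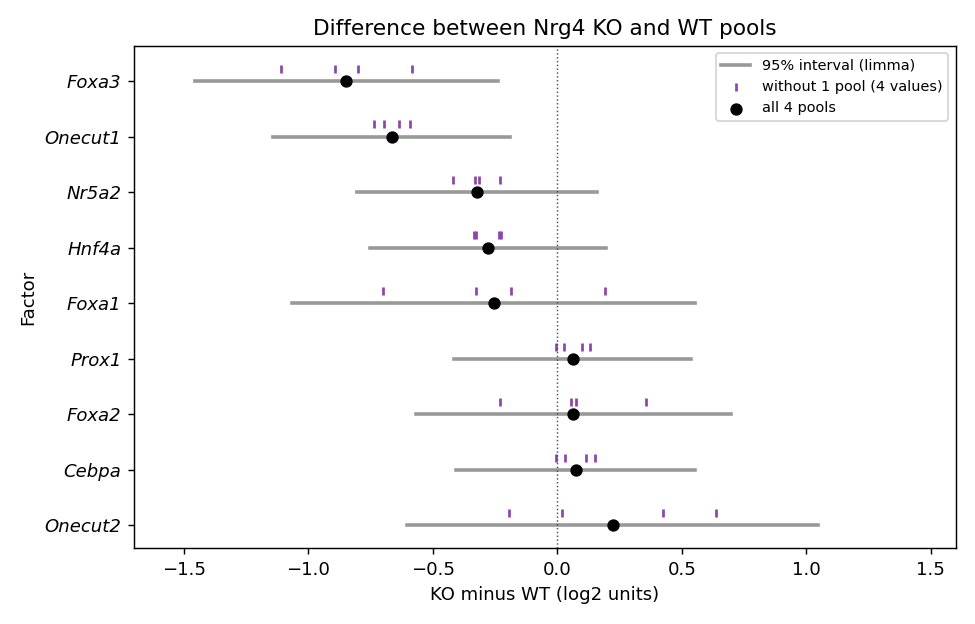
KO minus WT difference in log2 units for each factor (black points), with limma's 95% interval (grey lines) and the 4 values obtained when 1 pool is left out (purple ticks). The intervals of Foxa3 and Onecut1 lie below 0, and those of the other 7 include 0; the ticks of Foxa1, Foxa2, Onecut2, Cebpa and Prox1 fall on both sides of 0.

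Family relatives were mostly dim. Onecut3 stood at 0.51 and 0.49 in the KO pools, against 1.21 and 1.07 in the WT pools. The groups did not overlap. The KO mean of 0.50 lay below the median of all probe sets, 0.54, which was the cut for testing. Onecut3 reached that cut only through its WT pools, with a mean of 1.14. Its difference was -0.64 ± 0.19 (limma, adjusted p = 0.377). Among the C/EBP genes, Cebpb differed by -0.16 ± 0.23 and Cebpg by 0.23 ± 0.21, while Cebpd (-0.02) and Cebpe (-0.05) had mean levels 0.10 and 0.51 above the table median. Nr5a1, Hnf4g and Prox2, relatives expressed mainly outside the liver, had means within 0.23 of it. Of these, Hnf4g stood at 1.18 and 0.06 in the KO pools, against 0.12 and -0.10 in the WT pools, with a difference of 0.61 ± 0.37 in the fit without a filter on dim genes (limma, adjusted p = 0.775).

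Other regulators of liver gene expression did not share one direction. Of 39 listed, 35 were tested, 18 above 0 and 17 below, with a median of 0.00. By limma 0 passed, beside 0.0482% of tested genes. At an unadjusted p under 0.05, 3 were higher and 1 lower, beside 6.37% of tested genes higher and 3.92% lower. With a variance that follows intensity 1 was called, Nr1i3, beside 1.09% of tested genes. The 3 with the smallest p were Sox4, Nr1i3 and Nr2f2. Nr1i3, which encodes the xenobiotic receptor CAR, stood at 6.88 and 6.71 in the KO pools, against 7.43 and 7.47 in the WT pools. Its groups did not overlap, with a difference of -0.66 ± 0.19 (limma, adjusted p = 0.372; adjusted p = 0.033 with a variance that follows intensity). Sox4, a factor of progenitor and ductular cells, stood at 2.63 and 2.16 in the KO pools, against 0.94 and 1.24 in the WT pools (difference 1.31 ± 0.25, adjusted p = 0.266). Nr2f2, the gene of COUP-TFII, which is also made in mesenchymal and endothelial cells, differed by 0.62 ± 0.21 (adjusted p = 0.43).

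For each factor whose groups did not overlap, the 2 tested regulators with the closest 4-array profile, each gene centred on its own mean, were taken. Likeness was the Euclidean distance over 4 arrays, a description in which all genes share the same 4 pools. Onecut1 lay 0.105 from Nr1i3 and 0.33 from Ppara, against a median distance of 0.73 to the 35 regulators. Nr5a2 lay 0.14 from Ppara, the receptor of fatty acid oxidation genes, and 0.16 from the coactivator gene Ppargc1a, against a median of 0.51. Foxa3 lay 0.24 from Klf15, a glucocorticoid-induced regulator of amino acid breakdown, and 0.53 from Nr1i3, against a median of 1.01. Klf15 stood at 5.15 and 5.87 in the KO pools, against 6.17 and 6.19 in the WT pools, with the same lower KO pool as Foxa3. Hnf4a lay 0.18 from Nr1i2, the gene of the xenobiotic receptor PXR, and 0.23 from Zhx2, against a median of 0.48. The groups of Zhx2 overlapped, with 4.14 and 3.82 in the KO pools, against 4.12 and 4.11 in the WT pools. Profiles were not scaled, so genes with small differences lie close to each other.

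**Figure D3:**
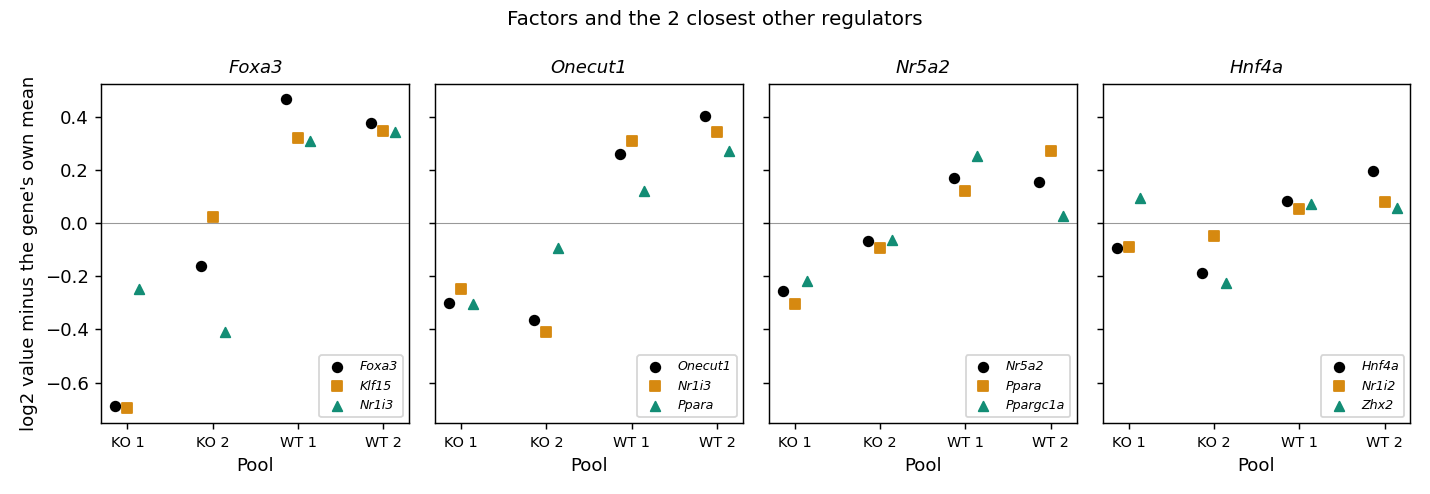
Log2 value minus the gene's own mean over 4 arrays for the factors whose groups did not overlap and the 2 closest of 35 tested regulators each, with KO pools left and WT pools right. Foxa3 and Klf15 are lowest in KO pool 1, whereas Onecut1 and Nr1i3 are about as low in both KO pools.

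Genes listed as targets of these factors were lower in KO in most cases, without single calls. The 5 lists of targets overlap, with 10 listed genes on more than 1. Over the 42 distinct targets tested, 31 were below 0 and 11 above, with a median of -0.21 beside 0.01 over all tested genes, and the median was -0.12 without KO pool 1. In 21 both KO pools lay below both WT pools, beside 19.5% of tested genes, and in 8 both lay above, beside 22.2%. By limma 0 passed after adjustment, and 6 lower and 1 higher had an unadjusted p under 0.05, beside 3.92% of tested genes lower and 6.37% higher. A variance that follows intensity called 4 lower and 1 higher, beside 1.09% of tested genes in both directions. The factors themselves are not counted among these 42. In a liver sample, fewer cells of a type and less RNA per cell cannot be told apart.

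The HNF4A targets numbered 20 tested genes, 14 below 0, with a median of -0.11. Slc10a1, the bile acid uptake transporter, stood at 7.67 and 8.30 in the KO pools, against 8.82 and 8.60 in the WT pools. Its groups did not overlap (difference -0.72 ± 0.27, limma, adjusted p = 0.461). Cyp8b1, the sterol 12-hydroxylase of bile acid synthesis, differed by -0.80 ± 0.37 and F7, coagulation factor VII, by -0.40 ± 0.21.

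Targets of FOXA and of C/EBP alpha share genes of gluconeogenesis and nitrogen metabolism. Of 9 FOXA targets 6 were below 0, with a median of -0.15, and of 10 C/EBP alpha targets 9 were below 0, with a median of -0.34. Pck1, the phosphoenolpyruvate carboxykinase, stood at 8.96 and 9.05 in the KO pools, against 9.55 and 9.73 in the WT pools. The groups did not overlap, with a difference of -0.63 ± 0.20 (limma, adjusted p = 0.394; adjusted p = 0.012 with a variance that follows intensity). Tat, the tyrosine aminotransferase, differed by -0.43 ± 0.20, Cps1, the first enzyme of the urea cycle, by -0.39 ± 0.19, and Igfbp1, a secreted binder of insulin-like growth factors, by -0.41 ± 0.19. In the same pools the difference was 0.07 for Cebpa, -0.85 for Foxa3, -0.255 for Foxa1 and 0.07 for Foxa2. A link between factors and targets was not tested.

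Of 10 targets of LRH-1 and PROX1, 7 were below 0, with a median of -0.30 that was -0.125 without KO pool 1. Cyp7b1, an oxysterol hydroxylase that is higher in male than in female mouse liver, stood at 4.52 and 5.58 in the KO pools, against 7.18 and 6.93 in the WT pools. Its difference was -2.01 ± 0.37 (limma, adjusted p = 0.259; adjusted p = 0.0121 with a variance that follows intensity). Abcg8 and Abcg5, which pair to form the sterol exporter, differed by -0.63 ± 0.19 and -0.51 ± 0.20, and in both genes the KO pools lay below the WT pools. Of 9 tested genes on the ONECUT target list, which holds the factor Foxa2, 6 were below 0, with a median of -0.13. The largest difference there was above 0. Cdh1, the gene of E-cadherin, stood at 4.76 and 5.36 in the KO pools, against 3.62 and 3.26 in the WT pools (difference 1.62 ± 0.28, limma, adjusted p = 0.234; adjusted p = 0.0206 with a variance that follows intensity). Cdh1 also stands on the bile duct marker list. Lcat, a cholesterol-esterifying enzyme of plasma, differed by -0.51 ± 0.19.

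Secreted hepatocyte proteins gave 17 of 20 tested genes below 0, with a median of -0.16 and 0 called by limma, beside 0.0482% of tested genes. At an unadjusted p under 0.05, 1 of them was lower, beside 3.92% of tested genes. Kng1, kininogen, differed by -0.77 ± 0.29, and Itih2 and Itih1, inter-alpha-trypsin inhibitor chains, by -0.50 ± 0.22 and -0.34 ± 0.20.

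Marker levels of several cell types also differed between the same pools. Of 14 hepatocyte markers 11 were below 0, with a median of -0.24, led by Cyp2f2 (-0.92 ± 0.19) and Hal (-0.73 ± 0.19). The other 3 were above 0: Ttr at 0.17 ± 0.20, Glul at 0.15 ± 0.19 and Apoa1 at 0.05 ± 0.19. Of those below 0, Cyp2e1 (-0.09 ± 0.19) and Apob (-0.04 ± 0.19) lay nearest to it. Pck1, Tat and Cps1 are among the markers that also stand on the target lists, so these lists are not separate evidence. Of 8 tested bile duct markers 7 were above 0, with a median of 1.08, led by Pkhd1 (1.88 ± 0.28), Cdh1 and Mmp7 (1.95 ± 0.35). The median level of these 8 was 2.70 and 3.28 in the KO pools, against 1.68 and 1.15 in the WT pools. The defining bile duct keratins Krt7 and Krt19, picked with their values in view, had means 0.16 and 0.21 above the table median. Krt7 differed by 0.40 ± 0.19 and Krt19 by -0.06 ± 0.19. Krt7, counted among the 7 above 0, reached the cut of 0.54 for testing only through its KO pools. Its mean was 0.90 in KO and 0.50 in WT. The Mmp7 mean lay 1.98 above that cut in KO and 0.02 above it in WT. Onecut1 and Foxa3 were lower in KO, where the median of the 8 markers was higher. Within KO, pool 2 had the higher marker median and the higher Foxa3 value, 3.58 against 3.05. Onecut1 was 4.72 in KO pool 2 against 4.78 in KO pool 1. A link between these values was not tested. Stellate cell and fibroblast markers gave 9 of 11 above 0 with a median of 0.71, led by Dpt (1.97 ± 0.24), Lum (1.26 ± 0.21) and Pdgfra (1.67 ± 0.29). On the same list Lrat differed by 0.11 ± 0.19, and the 2 below 0 were Reln (-0.11 ± 0.22) and Des (-0.09 ± 0.25). Macrophage markers gave 9 of 12 above 0 with a median of 0.36, with Cd63 at 0.98 ± 0.20, Trem2 at 1.30 ± 0.29 and Marco, a scavenger receptor, at -2.37 ± 0.33. None of these markers passed by limma after adjustment, beside 0.0482% of tested genes. A variance that follows intensity called 4 hepatocyte markers, all lower, and 3 bile duct markers, all higher. It also called 2 stellate cell and fibroblast markers, Dpt and Pdgfra, both higher, and 2 macrophage markers, Marco lower and Cd63 higher. Of all tested genes it called 1.09%. The part of cell makeup in the differences of the factors was not tested.

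Endothelial markers, relevant to Prox1, gave 5 of 10 above 0 and 5 below, with a median of 0.03. Flt4, a receptor of lymphatic and sinusoidal endothelium, differed by 0.35 ± 0.20, Stab1 by 0.22 ± 0.20 and Ptprb by 0.16 ± 0.21. These 3 had the smallest p of the list, and the lowest of the 5 below 0 was at -0.13. Markers of pancreas and intestine, tissues that also make several of these factors, were mostly dim. Of 8 pancreas markers 2 were tested, Ctrb1 and Cela1, which lay 0.07 and 0.54 above the table median. Of 6 intestine markers 3 were tested, and Cdx1 lay 0.02 above the median. Lgals4 lay 1.885 above it and differed by -0.51 ± 0.20. Fabp2, which hepatocytes may also express, lay 6.65 above it and differed by -0.43 ± 0.19. In Lgals4 and Fabp2 both KO pools lay below both WT pools.

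**Figure D4:**
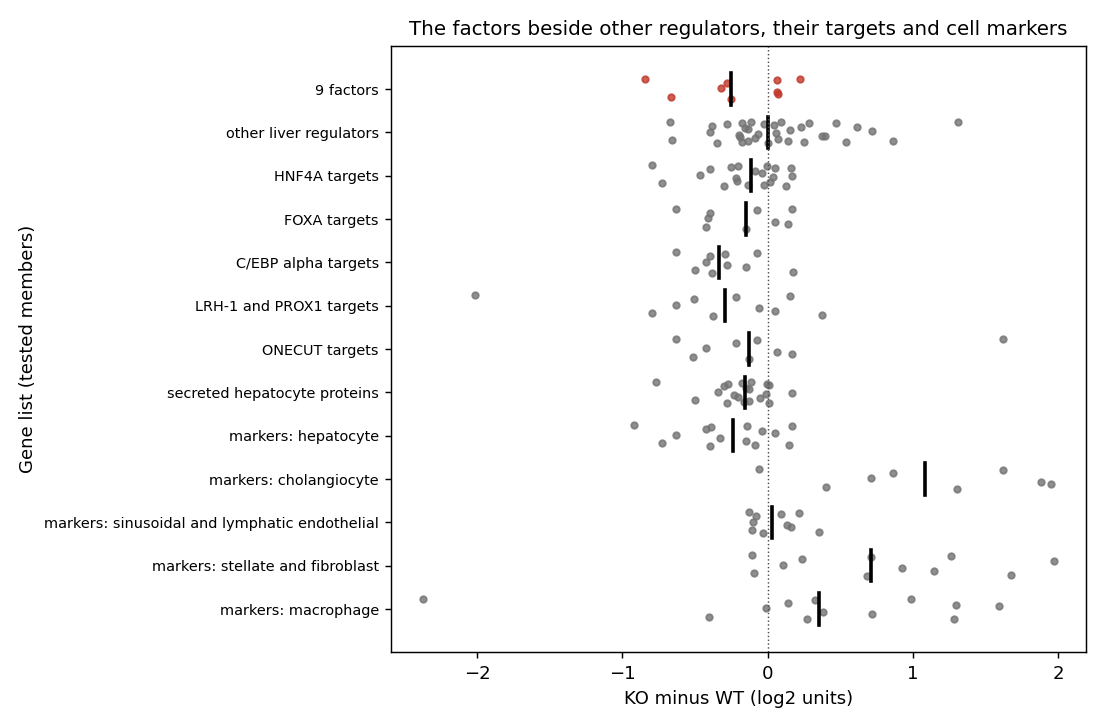
KO minus WT difference in log2 units of each tested gene (points) and the median (black bar) for the 9 factors (red), other liver regulators, target lists, secreted proteins and cell markers (grey). Medians are -0.25 for the 9 factors, 0.00 for the other regulators, between -0.34 and -0.11 for the target lists, and 1.08 for bile duct markers.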

How the data were processed

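Liver RNA of 2 Nrg4 KO and 2 WT pools, 400 ng each, was labelled with biotin and hybridised to 1 array per pool, per the labels' protocols. The deposited values are log2 expression values of 41345 probe sets; the submitters' processing notes name oligo, RMA and limma, and no source used here states versions, build or annotation. Probe sets with 1 symbol in the platform annotation (23521) gave 22180 genes, each by its probe set with the highest mean. Genes with a mean of at least 0.54, the median of all probe sets, were tested (12458). The KO minus WT contrast was fitted with limma 3.58.1 (R 4.3.3; lmFit and eBayes without covariates; 2 residual degrees of freedom and 3.67 from the prior), with Benjamini-Hochberg adjustment over all genes tested and a threshold of 0.05. The script was tested on simulated data. Pools are the replicates, and 4 arrays limit the precision. The SE and p-values combine the spread between pools of a gene with a prior variance taken from all tested genes. Hnf4a, with SDs of 0.07 between KO pools and 0.08 between WT pools, thus had an SE of 0.19. No scan date, slide or detection call was used here. Samples were grouped by their titles.

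The factors and lists were chosen with earlier results of these data known, so lists are described by counts and medians without a test. The genes named were all 9 factors, their listed relatives, Nrg4 and the 3 tested genes with the smallest p in each other list. The 2 closest regulators of each factor whose groups did not overlap were named too. Krt7, Krt19, Lrat, Reln, Des, Ttr, Glul, Apoa1, Cyp2e1 and Apob were picked with their values in view. The alternatives were other filters, array centring, quantile normalization, other variance models, the mean of probe sets, a replicate block and leaving out each pool. Listed genes with no single-symbol probe set in the table were not analysed here, and 1 set of targets with its motif is not reported here.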

Additional observations from a re-analysis of the deposited data

How the results depend on the processing

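No factor passed the adjusted threshold under any of the 12 alternatives, and Foxa3, Onecut1, Nr5a2 and Hnf4a stayed below 0 in all of them. The other factors changed sign when 1 pool was left out: Foxa1 to 0.19 (range -0.70 to 0.19) and Cebpa to -0.003 (range -0.003 to 0.15) without KO pool 1, Onecut2 to -0.19 (range -0.19 to 0.64) without KO pool 2, and Foxa2 to -0.23 (range -0.23 to 0.36) and Prox1 to -0.006 (range -0.006 to 0.13) without WT pool 2. The causes were not tested. The median of the 9 ranged from -0.23 to -0.003 without 1 pool. By limma 6 genes were called over the whole table, 136 when the variance followed intensity and 0 without any 1 pool (906 to 1314 at an unadjusted p under 0.05), where fewer samples entered.

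Deviations of same-numbered pools correlated at -0.04 over 12458 genes, so no pairing by pool number was seen. This value cannot tell whether same-numbered pools were handled together. With the replicate block 2 genes were called over all genes, none of them a factor.

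Medians of lists without 1 pool ranged from -0.16 to -0.041 for HNF4A targets, -0.26 to -0.09 for FOXA, -0.48 to -0.22 for C/EBP alpha, -0.45 to -0.125 for LRH-1 and PROX1, -0.28 to 0.074 for ONECUT, -0.26 to -0.12 for the 42 distinct targets, -0.26 to -0.066 for secreted proteins, -0.32 to -0.16 for hepatocyte, 0.80 to 1.505 for bile duct, -0.053 to 0.11 for endothelial, 0.73 to 0.81 for stellate and 0.20 to 0.53 for macrophage markers. With quantile normalization HNF4A targets were at -0.027 and FOXA targets at -0.28. With a stricter filter on dim genes, which left 5 bile duct and 9 endothelial markers, these were at 1.62 and 0.095, and with arrays centred on their medians endothelial markers were at -0.017. The remaining 280 of the recomputed values moved by less than the spread between pools, kept their side of the threshold or, for counts, stayed near the main count. The count of factors lower in KO, for example, ranged from 5 to 7 without 1 pool. Another example is the bile duct median, at 0.86 over 9 markers with no filter and 0.87 with the mean of probe sets. Signal limits the dim relatives and keratins.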
